A study of Mus musculus with 13 samples.

Results

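In oligodendrocyte precursor cells (OPCs), 540 of the 7384 listed OLIG2 called peaks lay within H3K27me3 and belonged to OPCs and not to newly formed oligodendrocytes (NFOs). The members were selected on measured peaks. Each is an OLIG2 peak of OPCs that shares no base with any OLIG2 peak of NFOs, shares at least 1 bp with an H3K27me3 peak of OPCs and shares none with an H3K4me3 peak of OPCs. Of the other OPC peaks, 1059 overlapped an NFO peak, 631 were OPC-only with H3K4me3 and 5154 were OPC-only with neither mark. The OPC-only peaks with H3K4me3 include 93 that overlapped H3K27me3 as well and so are not members.

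The study followed mouse neural stem cells (NSCs), OPCs and NFOs, all untreated and labelled C57BL/6, with ChIP-Seq of OLIG2, H3K4me3 and H3K27me3. OPCs were panned from dissociated brains with an antibody to PDGFRα and NFOs then with one to GalC, after microglia and endothelial cells had been depleted, whereas the NSCs were a purchased culture of embryonic cortex that the Methods give as CD-1. Each list comes from 1 library without replicates, so no value has an error between animals or preparations, the depth of the libraries is unknown, and OLIG2 binding in NSCs was not analysed here. The labels of the 6 histone libraries name the antibody of the other mark, so the titles were checked at known genes. H3K4me3 peaks lay within 2 kb of the transcription start site (TSS) of 8 of 8 housekeeping genes in every cell type and H3K27me3 peaks at 0 of 8, while H3K27me3 peaks of at least 1 kb lay at 24 or 25 of 25 Polycomb target genes. The titles were used. By the same distance, H3K4me3 peaks of OPCs lay at 6 of 6 OPC, 4 of 4 neuronal, 1 of 4 astrocyte, 1 of 4 microglia and 1 of 3 endothelial marker genes, and also at 6 of 6 NSC and 3 of 7 NFO marker genes. Those of NFOs lay at 0 of 7 marker genes of NFOs, such as Mbp, Mog and Mag, but at 5 of 6 OPC, 3 of 6 NSC and 3 of 4 neuronal ones. The markers of NFOs thus do not bear out the label of that list. Its peaks were also narrower, with a median of 256 bp against 987 bp in OPCs. Peaks of at least 1 kb lay at 3 of 8 housekeeping genes in NFOs and at 7 of 8 in OPCs. Whether a weaker list or the cells account for the 0 of 7 was not tested.

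OLIG2 is a basic helix-loop-helix transcription factor that specifies the oligodendrocyte lineage and binds E-boxes, short palindrome-like sites with the core CANNTG. H3K27me3 is the mark laid down by the Polycomb repressive complex PRC2. It covers silent developmental genes, such as Hox genes, in wide domains, while H3K4me3 sits at active or poised promoters, and a gene with both marks is called bivalent.

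Sequences of 7 members show what the peaks looked like. They were read from the GRCm38.p6 genome, which has the coordinates of the mm10 build of the peak lists, and are printed on the forward strand. Capitals mark the E-box forms searched for OLIG2 (CAGATG, which reads CATCTG on the other strand, and the palindromes CATATG and also CAGCTG) and runs of at least 8 A or 8 T. Hoxd10 is shown for the widest H3K27me3 domain, Wnt4 for H3K27me3 in all 3 cell types, Lix1 for the highest OLIG2 fold enrichment at a protein-coding gene, Tll2 for a wide domain marked in OPCs alone, Hes1 as a developmental regulator, and Trh and Chrnb4 for domains narrower than the OLIG2 peak.
Hoxd10, chr2:74687602-74687831: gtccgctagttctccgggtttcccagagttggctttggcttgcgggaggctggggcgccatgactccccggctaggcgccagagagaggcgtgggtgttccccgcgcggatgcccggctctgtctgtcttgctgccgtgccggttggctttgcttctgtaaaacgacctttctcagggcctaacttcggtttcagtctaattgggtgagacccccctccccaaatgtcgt
Wnt4, chr4:137279137-137279366: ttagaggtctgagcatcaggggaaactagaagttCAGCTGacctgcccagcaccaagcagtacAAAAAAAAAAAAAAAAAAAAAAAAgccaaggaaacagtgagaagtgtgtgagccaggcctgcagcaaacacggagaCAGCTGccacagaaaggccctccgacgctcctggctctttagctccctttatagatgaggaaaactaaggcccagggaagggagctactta
Lix1, chr17:17409631-17409860: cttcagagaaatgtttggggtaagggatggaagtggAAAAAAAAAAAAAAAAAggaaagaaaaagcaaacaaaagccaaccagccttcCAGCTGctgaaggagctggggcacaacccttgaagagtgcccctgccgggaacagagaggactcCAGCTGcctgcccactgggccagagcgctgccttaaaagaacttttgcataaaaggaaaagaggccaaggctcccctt
Tll2, chr19:41101564-41101793: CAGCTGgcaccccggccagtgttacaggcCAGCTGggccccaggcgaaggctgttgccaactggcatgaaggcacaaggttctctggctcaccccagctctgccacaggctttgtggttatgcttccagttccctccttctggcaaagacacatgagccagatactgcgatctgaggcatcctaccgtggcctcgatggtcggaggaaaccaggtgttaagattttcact
Hes1, chr16:30059441-30059670: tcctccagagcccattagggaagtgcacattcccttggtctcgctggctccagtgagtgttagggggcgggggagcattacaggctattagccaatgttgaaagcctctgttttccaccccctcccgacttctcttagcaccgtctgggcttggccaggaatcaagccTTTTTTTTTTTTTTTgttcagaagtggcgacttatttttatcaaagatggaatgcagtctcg
Trh, chr6:92240902-92241131: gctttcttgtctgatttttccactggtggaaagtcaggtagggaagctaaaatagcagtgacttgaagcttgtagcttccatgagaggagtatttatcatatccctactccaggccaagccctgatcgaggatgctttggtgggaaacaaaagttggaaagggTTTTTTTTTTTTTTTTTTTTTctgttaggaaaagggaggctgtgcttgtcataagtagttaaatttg
Chrnb4, chr9:55044974-55045203: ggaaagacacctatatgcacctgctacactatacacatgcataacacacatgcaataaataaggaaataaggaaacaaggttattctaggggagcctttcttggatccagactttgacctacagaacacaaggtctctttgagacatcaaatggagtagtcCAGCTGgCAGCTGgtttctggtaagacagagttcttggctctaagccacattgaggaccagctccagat
The peaks at Hoxd10, Tll2 and Chrnb4 held no such run, whereas the longest runs were 24 bases at Wnt4, 21 at Trh, 17 at Lix1 and 15 at Hes1. Wnt4, Lix1, Tll2 and Chrnb4 each held 2 copies of CAGCTG, and Hoxd10, Hes1 and Trh held none of the E-box forms.

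The domains under the members were mostly narrow. The widest OPC H3K27me3 peak that overlapped a member had a median width of 392 bp (95% interval of the median 327 to 452 bp, from ranks), with a lowest value of 171 bp and a highest of 22106 bp. All 29417 listed H3K27me3 peaks of OPCs had a median of 329 bp. For 198 members (36.7%) the domain was no wider than 230 bp, which is the usual width of an OLIG2 peak. It was 231 to 500 bp for 109 members, 501 to 999 bp for 166 and at least 1 kb for 67, or 12.4% (9.75 to 15.5%), against 15% of all OPC H3K27me3 peaks. Shares are given with exact 95% intervals after Clopper and Pearson (binomial), which hold counting error and nothing else. The OLIG2 peak was wholly inside its domain for 88 members and wider than its domain for 194. Membership is therefore an overlap of called peaks, and it means a position inside a broad domain for only a small part of the members.

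**Figure D1:**
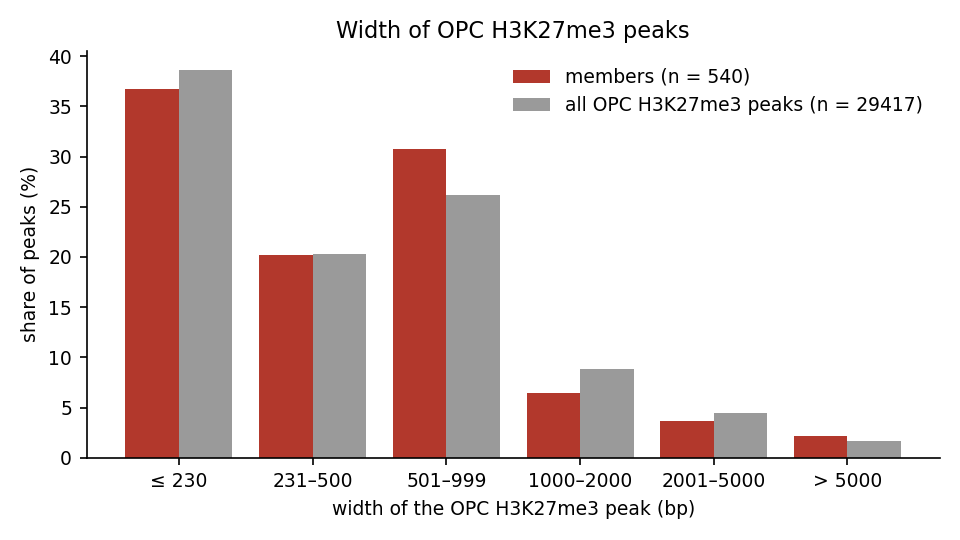
Share of H3K27me3 peaks of OPCs (vertical axis, %) in 6 classes of width (horizontal axis, bp), for the 540 members (red) and all 29417 listed peaks (grey). The members follow the whole list closely, with 36.7% and 38.6% at 230 bp or less and 2.22% and 1.68% above 5000 bp.

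The 540 members lay in 535 domains, and 5 domains of 391 to 873 bp held 2 members each, at Mfsd11, Pp2d1, Zc3hc1, Rnf122 and the lncRNA AC125184.1. At the limits of the rule, the smallest overlap of a member with its domain was 2 bp, at Zc3hc1, and 8 members overlapped by less than 50 bp. An OPC-only peak at Zfp709 touched an H3K27me3 peak without sharing a base and is not a member. The member closest to an NFO OLIG2 peak, at the lncRNA gene Gm46609, was 95 bp from it, and the smallest overlap of a shared peak was 15 bp. The member closest to H3K4me3, at Camkmt, was 48 bp from it.

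OLIG2 enrichment at the members was like that of other OPC-only peaks away from H3K4me3. The fold enrichment over control, as the authors' peak caller gave it, ran from 2.19 to 41.8 with a median of 7.77. The median was 7.70 for OPC-only peaks with neither mark, 9.38 for OPC-only peaks with H3K4me3 and 10.1 for peaks shared with NFOs. A fold enrichment above 20 was found for 9 members, or 1.67% (0.765 to 3.14%), and for 17.1% (14.9 to 19.5%) of the shared peaks. The OLIG2 fold enrichment had a Spearman rho of 0.07 with the H3K27me3 fold enrichment of the domain and of 0.08 with its width, over 540 members that share both libraries.

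The members with the highest OLIG2 fold enrichment had domains of 183 to 1944 bp. The highest, 41.8, lay in an intron of the lncRNA gene Gm48623 (chr13:54309443-54309543), 6901 bp from its TSS, in a domain of 621 bp. The next lay in an intron of Lix1, named for its expression in limb and central nervous system, with an OLIG2 fold enrichment of 37.9 and a domain of 1944 bp. An intronic peak of Tll2, which encodes an extracellular metalloprotease of the tolloid family, had 37.8 and a domain of 1673 bp. Its nearest TSS, 24566 bp away, was that of Opalin, a myelin protein gene. The Lix1 domain overlapped H3K4me3 alone in NSCs and H3K27me3 alone in NFOs, and the Tll2 domain overlapped neither mark in either cell type. Fold enrichments of 25.3 and 23.4 were found at Hapln1 (a link protein of the hyaluronan matrix) and 3633 bp from the TSS of Trh (thyrotropin-releasing hormone). Gm44008, Dnah5 (an axonemal dynein), Wnt4 and Kcnk5 (a potassium channel) followed with 21.6, 20.9, 20.3 and 19.8. Of these 9 members, 6 had a domain that met neither mark in NSCs nor in NFOs. That was so for 42.0% of all 540 members and 50.2% of all OPC H3K27me3 peaks, and 9 members are too few to stand apart. Of the 9, only those at Wnt4 and Hapln1 were listed with H3K27me3 in all 3 cell types, against 10.7% of all members.

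**Figure D2:**
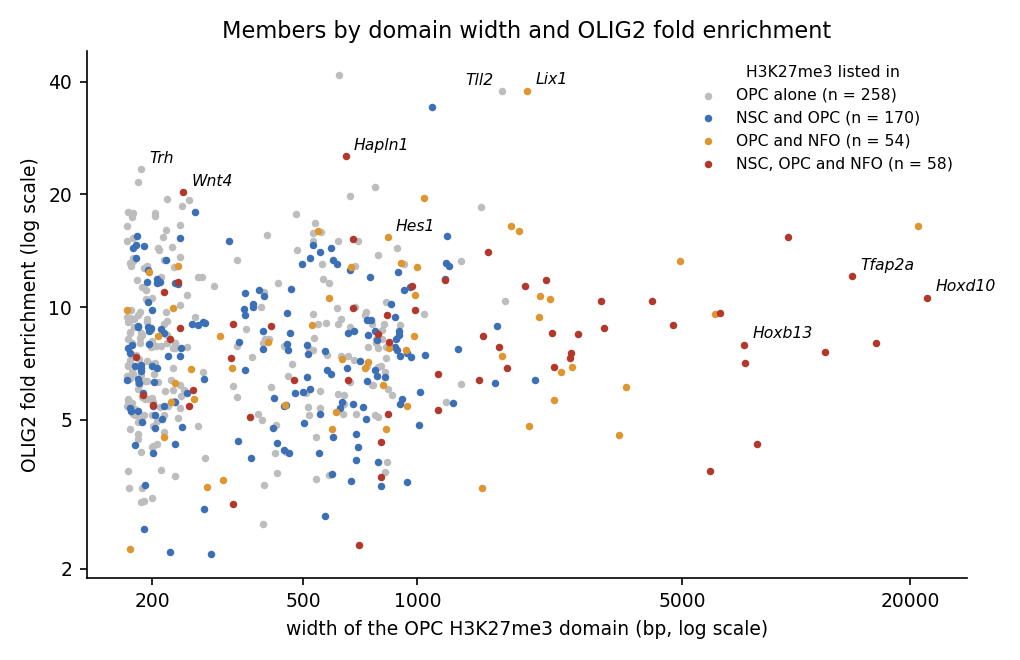
Each point is 1 of the 540 members, placed by the width of its OPC H3K27me3 domain (bp, log scale) and its OLIG2 fold enrichment (log scale), and coloured by the cell types in which the domain overlapped H3K27me3. Points in red, with H3K27me3 in all 3 cell types, make up most of the domains above 5000 bp, such as those of Hoxd10 and Tfap2a, and the points with the highest fold enrichment, such as Tll2 and Lix1, have domains below 2000 bp.

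Of the 10 widest domains, 4 lay at the developmental regulators Hoxd10, Hoxa2, Tfap2a and Hoxb13. The member 4207 bp upstream of Hoxd10 (chr2:74687602-74687831) had an OLIG2 fold enrichment of 10.6 and lay in a domain of 22106 bp with an H3K27me3 fold enrichment of 6.70. H3K27me3 of NSCs covered 100% of this domain and that of NFOs 89.7%. At Hoxa2, in an annotated intron 53 bp from the TSS of the antisense transcript Hoxaas2, the OLIG2 fold enrichment was 8.0 and the domain 16204 bp, of which H3K27me3 covered 86.4% in NSCs and 92.2% in NFOs. The domains at Hoxb13 and Hoxb1 were 7289 and 5932 bp wide, with OLIG2 fold enrichments of 7.94 and 3.65. Hox genes give cells their position along the body axis and are kept silent by Polycomb in the forebrain.

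At Tfap2a, an AP-2 transcription factor of the neural crest, the member lay in the UTR, 191 bp from the TSS. It had an OLIG2 fold enrichment of 12.1 in a domain of 13978 bp, which H3K27me3 covered by 100% in NSCs and 65.8% in NFOs. The other 6 of the 10 widest domains lay at the lncRNA genes Gm41725, Gm32351, Gm42132 and Gm33993, in an intron of Camkmt whose nearest TSS was that of the homeobox gene Six3 at 158137 bp, and 1736 bp from the TSS of Nxph4 (neurexophilin 4). All 10 domains overlapped H3K27me3 in NFOs and 9 did so in NSCs, where the domain at Gm41725 met neither mark. Of all OPC H3K27me3 peaks of at least 1 kb, 75.6% overlapped H3K27me3 in NFOs and 43.3% in NSCs. The shares of all peaks as wide as these 10 domains were not computed, and a wide domain meets an overlap more easily.

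For the members as a whole, H3K27me3 of the domain was listed in NSCs more often than in NFOs. An NSC H3K27me3 peak overlapped the domains of 228 members, or 42.2% (38.0 to 46.5%), against 27.7% of all OPC H3K27me3 peaks. An NFO H3K27me3 peak overlapped those of 112 members, or 20.7% (17.4 to 24.4%), against 25.4% of all OPC H3K27me3 peaks. Over all widths the members thus stood above the whole list for NSCs and below it for NFOs. By width, the NFO share of members was 13.7% (10.8 to 17.2%) against 16.5% under 1 kb. At 1 kb and over it was 70.1% (57.7 to 80.7%) against 75.6%. Within these widths the NFO share of the whole list was thus inside the members' interval, and the NSC share was outside it. The intervals hold counting error alone and the members' domains are part of the whole list. Neither position is therefore a test of a difference. With the filter of the study on every list, the NSC share of members was 29.9%, and that of the whole list was not computed. H3K4me3 overlapped the domains of 111 members in NSCs, 20.6% (17.2 to 24.2%) against 16.6% of all, and of 57 members in NFOs, 10.6% (8.09 to 13.5%) against 9.73% of all. The rule used no list of NSCs and no histone list of NFOs. Peaks of NSCs come from single-end and those of OPCs and NFOs from paired-end reads, and the lists hold 36069 H3K27me3 peaks for NSCs and 12688 for NFOs, so shares in NSCs and NFOs are not on one scale.

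At the OLIG2 peak itself the values were close to those of the domain. NSC H3K27me3 overlapped 214 of the 540 peaks, 39.6% (35.5 to 43.9%), against 15.2% of all listed OLIG2 peaks of OPCs. For NFO H3K27me3 the count was 102 peaks, 18.9% (15.7 to 22.4%), against 2.65% of all. NSC H3K4me3 overlapped 98 peaks, 18.1%, against 21.6% of all, and NFO H3K4me3 overlapped 50 peaks, 9.26%, against 13.6% of all. OPC-only peaks with neither mark overlapped H3K27me3 in 13.1% of cases in NSCs and 0.194% in NFOs. Members had to overlap H3K27me3 of OPCs, and the comparison peaks did not. The higher H3K27me3 shares of members at the OLIG2 peak therefore cannot be told apart from the rule where cell types share the mark. The comparison of domains with all OPC H3K27me3 peaks, above, has that mark on both sides, but not the other parts of the rule. The rule also left out OLIG2 peaks that overlapped H3K4me3 of OPCs or OLIG2 peaks of NFOs. H3K4me3 of OPCs overlapped 2.41% of the members' domains and 7.39% of all OPC H3K27me3 peaks.

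H3K27me3 was listed in OPCs alone at the domains of 258 members (47.8%), in NSCs and OPCs at 170 (31.5%), in OPCs and NFOs at 54 (10.0%) and in all 3 cell types at 58 (10.7%). Over all OPC H3K27me3 peaks these shares were 56.5%, 18.1%, 15.7% and 9.64%. Only the last was inside the interval of the members (8.26 to 13.7%), which holds counting error alone and is no test of a difference. For the pair of marks, the domain met neither mark in NSCs for 275 members, H3K27me3 alone for 154, both marks for 74 and H3K4me3 alone for 37, that is 50.9%, 28.5%, 13.7% and 6.85% against 64.9%, 18.4%, 9.33% and 7.32% of all OPC H3K27me3 peaks. In NFOs it met neither mark for 411 members, H3K27me3 alone for 72, both for 40 and H3K4me3 alone for 17, that is 76.1%, 13.3%, 7.41% and 3.15% against 69.9%, 20.4%, 4.98% and 4.75% of all. The most frequent courses were neither mark in NSCs and NFOs (227 members, 42.0% against 50.2% of all) and H3K27me3 alone in NSCs with neither mark in NFOs (126 members, 23.3% against 13% of all). Domains with both marks in NSCs were listed with neither in NFOs for 35 members (6.48% against 3.38%), with both again for 21 (3.89% against 2.67%) and with H3K27me3 alone for 14 (2.59% against 2.22%).

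Overlap by at least 1 bp, which a wide domain meets more easily than a narrow one, was more frequent at wide domains. Of the 67 members with a domain of at least 1 kb, 47 overlapped H3K27me3 in NFOs, or 70.1% (57.7 to 80.7%), against 75.6% of all OPC H3K27me3 peaks of that width. Of the 473 members with a narrower domain, 65 did so, or 13.7% (10.8 to 17.2%), against 16.5% of all. In NSCs the shares were 62.7% (50 to 74.2%) of the wide domains, against 43.3% of all, and 39.3% (34.9 to 43.9%) of the narrower ones, against 25.0% of all. H3K4me3 of NFOs overlapped 27 of the 67 wide domains, 40.3% (28.5 to 53.0%), against 21.6% of all wide OPC H3K27me3 peaks, and covered a median of 10.5% of the domains it overlapped. All 3 cell types had H3K27me3 at 29 of the 67 wide domains, 43.3% (31.2 to 56.0%) against 35.0% of all, and at 29 of the 473 narrower ones, 6.13% (4.14 to 8.69%) against 5.17% of all. At the narrowest domains, of up to 230 bp, NFO H3K27me3 was found for 13 of 198, or 6.57% (3.54 to 11.0%), against 8.48% of all.

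With the mark required over at least 50% of the domain, the difference with width was gone for H3K27me3 of NSCs, remained for that of NFOs and had the opposite sign for H3K4me3. NSC H3K27me3 then marked 22 of the 67 wide domains, 32.8% (21.8 to 45.4%), and 157 of the 473 narrower ones, 33.2% (29.0 to 37.6%), against 24.7% and 20.2% of all OPC H3K27me3 peaks of those widths. NFO H3K27me3 still marked more of the wide domains, 40.3% (28.5 to 53.0%) against 11.4% (8.69 to 14.6%) of the narrower ones, where all peaks had 48.9% and 12.9%. H3K4me3 covered fewer of the wide domains, with 2 of 67, 2.99% (0.364 to 10.4%), against 12.1% (9.26 to 15.3%) of the narrower ones in NSCs and 1 of 67, 1.49% (0.0378 to 8.04%), against 5.07% (3.28 to 7.46%) in NFOs, and the intervals overlap in both. The shares of all peaks were 7.25% and 10.1% in NSCs and 2.39% and 6.17% in NFOs.

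**Figure D3:**
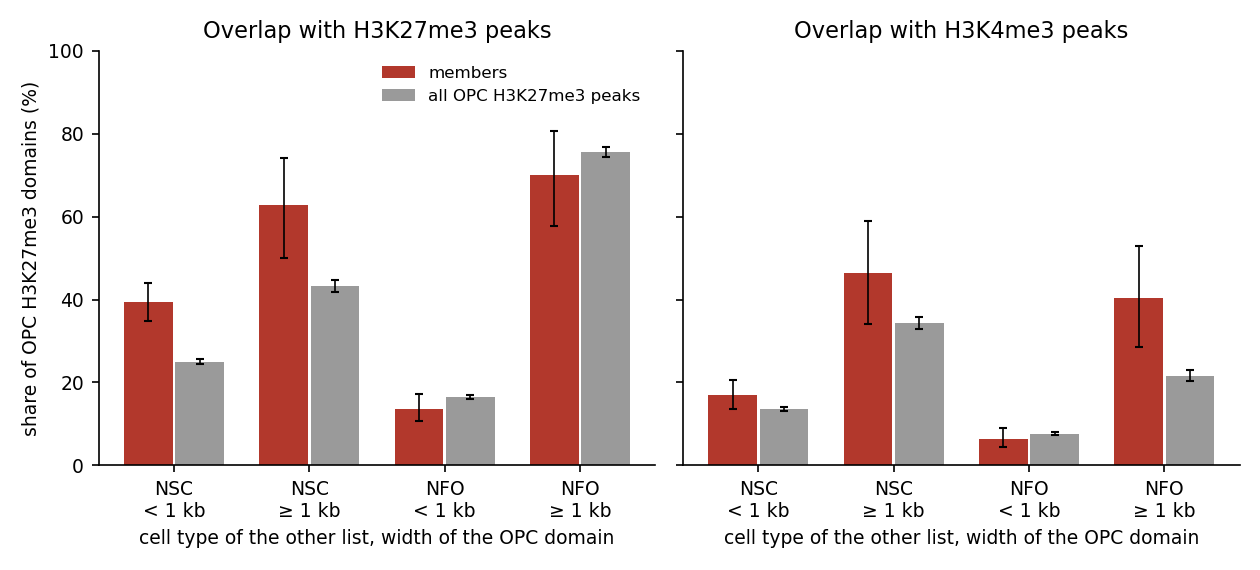
Share of OPC H3K27me3 domains (vertical axis, %) that overlapped an H3K27me3 peak (left) or an H3K4me3 peak (right) of NSCs or NFOs, by at least 1 bp and by width of the domain (horizontal axis), for members (red, 473 under 1 kb and 67 of 1 kb and over) and for all listed peaks (grey). Bars show exact binomial 95% intervals. For H3K27me3 of NSCs the members stand above all peaks at both widths, with 39.3% and 62.7% against 25.0% and 43.3%, and for NFOs they do not.

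Where NSC H3K27me3 overlapped a domain, it covered a median of 81.1% of it (lowest 4.34%, highest 100%), and NFO H3K27me3 a median of 81.7% (7.78 to 100%). The NSC peak at these domains had a median width of 646 bp and a highest of 117916 bp, over the Hoxa cluster, and the NFO peak a median of 756 bp and a highest of 24467 bp, at Gm41725. At Lhx5, a LIM homeobox gene, H3K27me3 covered 100% of the domain of 3047 bp in NSCs and 7.78% in NFOs. At Tead1, an effector of the Hippo pathway with a domain of 1858 bp, it covered 0% in NSCs and 11.6% in NFOs.

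Runs of A or T were frequent at the members, and at other OLIG2 peaks as well. A run of at least 8 A or 8 T was found in 476 of 540 members, 88.1% (85.1 to 90.8%), and in 75.5% (74.5 to 76.5%) of all listed OLIG2 peaks of OPCs. The share was 85.8% (83.6 to 87.9%) for peaks shared with NFOs, 76.2% for OPC-only peaks with H3K4me3 and 71.9% for those with neither mark. The longest run had a median of 16 bases. In 300-base promoters of RefSeq on the same build, 7.87% held such a run. Only 6.48% of members lay within 1 kb of a TSS, so promoters are an unlike background. The share in introns or intergenic sequence was not computed. Among the members the share was 92.4% (87.8 to 95.7%) with a domain of up to 230 bp and 77.6% (65.8 to 86.9%) with a domain of at least 1 kb. At the central 230 bases of all OPC H3K27me3 peaks, runs were found in 55.7% of those up to 500 bp wide, 14.2% of those of 501 to 999 bp and 13.8% of those of at least 1 kb. NSC H3K27me3 peaks had 94.3%, 14.6% and 14.8%, and NFO H3K27me3 peaks 25.1%, 10.1% and 10.5%. The narrow peaks of each list therefore held these runs more often than its wide peaks. The part of these runs in the overlap of OLIG2 and H3K27me3 peaks was not tested.

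**Figure D4:**
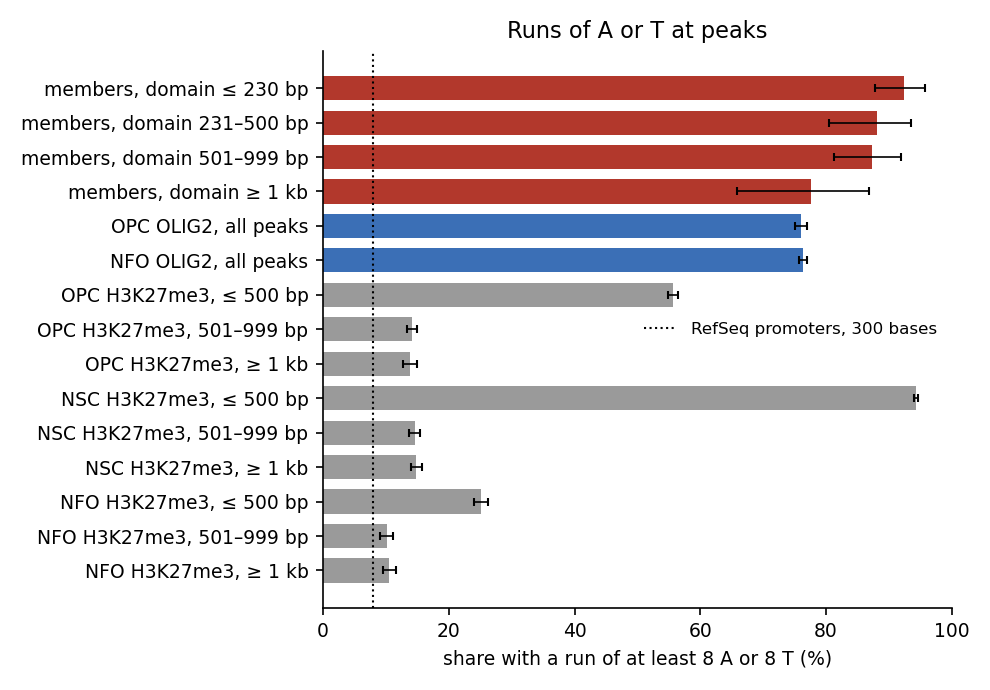
Share of peaks (horizontal axis, %) with a run of at least 8 A or 8 T, for members by width of their domain (red, whole OLIG2 peak), all OLIG2 peaks (blue, central 230 bases) and H3K27me3 peaks by width (grey, central 230 bases), with exact binomial 95% intervals and the share of RefSeq promoters as a dotted line at 7.87%. Members lie between 77.6% (domains of 1 kb and over) and 92.4% (domains of up to 230 bp), NSC H3K27me3 peaks of up to 500 bp at 94.3%, and H3K27me3 peaks above 500 bp below 16%.

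The 64 members without such a run had a median domain width of 570 bp, against 368 bp for the 476 with one, and 15 of the 64 (23.4%) had a domain of at least 1 kb, against 52 of 476 (10.9%). These 15 include Hoxd10, Nkx2-3, Nxph4, Tead1, Tll2, Hs3st4 and Plekha7. Of all 64, H3K27me3 overlapped the domains of 42.2% in NSCs and 31.2% in NFOs, against 42.2% and 19.3% for the 476 with a run.

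E-box forms of OLIG2, searched on both strands, were found in 172 members, 31.9% (27.9 to 36.0%), and in 34.3% (33.2 to 35.4%) of all OPC OLIG2 peaks. Peaks shared with NFOs had 42.0% (39.0 to 45.1%). CAGATG was found in 16.3% of members, CAGCTG in 14.4% and CATATG in 4.26%, against 18.9%, 13.6% and 6.20% of all OPC OLIG2 peaks, and 17.2%, 16.3% and 3.91% of the longer RefSeq promoters. Any CANNTG, which includes all these forms, was found in 70.2% of members and 70.4% of all OPC peaks. The SOX forms ACAAAG and ACAATG were found in 19.1% and 10.9% of members and in 19.5% and 11.3% of all peaks, the core motif of CTCF in 3.52% and 3.11%, and CACACACA in 5.74% and 6.38%. The median G+C content was 43.5% in members and 43.0% in all peaks, the median number of CpG dinucleotides was 2 in both, and repeat-masked bases made up at least 50% of the peak in 22.2% and 22.6%.

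Members were close to OPC-only peaks with neither mark in the share within 1 kb of a TSS, but not at 1 to 3 kb or in gene bodies. Within 1 kb of a TSS lay 35 members, 6.48% (4.56 to 8.90%), against 6.71% of peaks with neither mark. The rule leaves out every peak that overlaps H3K4me3, the mark of promoters, so the 67.5% of OPC-only peaks with H3K4me3 is no comparison for the members. Between 1 and 3 kb lay 93 members, 17.2% (14.1 to 20.7%), against 11.7% of peaks with neither mark. Another 199 lay in gene bodies, 36.9% (32.8 to 41.1%), against 45.6% of peaks with neither mark. Distal intergenic regions held 209, 38.7% (34.6 to 43.0%), against 35.4%, and 4 lay within 300 bp downstream of a gene. Members had to overlap H3K27me3 of OPCs and peaks with neither mark could not. The positions of all OPC H3K27me3 peaks were not computed, so these differences in position cannot be told apart from the rule. The summit was in an intron for 270 members, intergenic for 261, in a UTR for 7 and in another exon for 2. An OLIG2 peak of NFOs lay within 10 kb of 102 members (18.9%), and 12 domains of members also held an NFO OLIG2 peak at another place.

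By the rule of the study, which takes the gene body and the 5 kb before the TSS, 354 members (65.6%, 61.4 to 69.6%) had at least 1 gene, in all 390 genes, of which 297 were protein-coding. Of 34 marker genes of OPCs, NFOs, NSCs, neurons, astrocytes, microglia and endothelial cells, 0 were among them. The 297 genes are 1.36% of all annotated protein-coding genes, so a list of 34 is too short for 0 to stand apart from that share. An NFO OLIG2 peak at another place was assigned to 160 of the 297 protein-coding genes, or 53.9% (48.0 to 59.6%), against 56.1% of the genes of OPC-only peaks with neither mark. Most genes had 1 member and 15 had 2. Fam178b and Slc39a11, a zinc transporter, had 3 each, and Gm20388, an annotated transcript that spans many other genes, had 5. The members at Fam178b had OLIG2 fold enrichments of 18, 13.5 and 7.24 and domains of 175 to 259 bp, and those at Slc39a11 had 16.1, 6.84 and 6.29 and domains of 207 to 253 bp. None of these 6 domains reached 1 kb, 1 of them, at Fam178b, met H3K27me3 in NSCs, and another, at Slc39a11, met it in NFOs.

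Of the developmental transcription factors in a list of homeobox and related families, 9 were among the 297 genes (3.03%), against 36 of 3615 protein-coding genes of all OPC OLIG2 peaks (0.996%) and 1.04% of all annotated protein-coding genes. They were Foxp1, Hes1, Hoxa2, Hoxb1, Hoxb13, Hoxd10, Irx4, Lhx5 and Pou2f3. Members are selected on H3K27me3, which covers silent developmental genes, and the comparison genes are not. The share among all genes at OPC H3K27me3 peaks was not computed, so this difference cannot be told apart from the rule. At domains of at least 1 kb the list had 5 of 45 genes, namely the 4 Hox genes and Lhx5. Hes1, a repressor downstream of Notch, had its member 4828 bp upstream of the TSS with an OLIG2 fold enrichment of 15.4 and a domain of 834 bp, which met H3K4me3 alone in NSCs and H3K27me3 over 91.0% of its length in NFOs. Foxp1, a forkhead factor, had 2 members, with OLIG2 fold enrichments of 9.92 and 4.71, and both domains met H3K27me3 in NFOs. Irx4 and Pou2f3 had OLIG2 fold enrichments of 8.41 and 8.06 and domains of 219 and 780 bp that met neither mark in the other cell types.

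Of secreted signals, Wnt4 and Chrd were among the genes (0.673%, against 0.332% of all OPC OLIG2 genes). Wnt4, a Wnt ligand, had its member in an intron 1763 bp from the TSS, with an OLIG2 fold enrichment of 20.3 and an H3K27me3 fold enrichment of 12.4, although its domain was only 241 bp wide, and it met both marks in NSCs and NFOs. Chrd, which encodes the BMP antagonist chordin, had 6.47 in a domain of 175 bp. Ion channels and neurotransmitter receptors numbered 7 genes (2.36%, against 1.27%). The calcium channel gene Cacna1g had an OLIG2 fold enrichment of 17.5, the nicotinic receptor subunit gene Chrnb4 had 19.4 and the potassium channel genes Kcnk5 and Kcnk4 had 19.8 and 10.6. The domains of Cacna1g, Chrnb4 and Kcnk5 met neither mark in NSCs or NFOs, and that of Kcnk4 was covered by NFO H3K27me3 over 100% of its 586 bp. The sodium channel gene Scn3a had 9.11, and Grin1 and Grik2, subunits of glutamate receptors, had 8.42 and 5.50 with H3K27me3 over 98.4% and 89.6% of their domains in NSCs.

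Neural adhesion and guidance genes numbered 6 (2.02%, against 1.63% of all OPC OLIG2 genes). They were Cntn2, Sema4b, Cdh1, Unc5b, Cdh23 and Efna3. Cntn2, a contactin of axons, had an OLIG2 fold enrichment of 8.94 in a domain of 263 bp that met both marks in NSCs and neither in NFOs. Sema4b, a semaphorin, had 8.37 in a domain of 982 bp that met neither mark in NSCs and H3K27me3 over 99.9% of its length in NFOs. Extracellular matrix genes were represented by the integrins Itgb3 and Itgb7 (0.673%, against 0.802%), zinc finger genes by Zfp703 and Zfp385b (0.673%, against 1.69%), and olfactory and vomeronasal receptors by none (0 of 297, which allows up to 1.01%, against 0.747%). None of the genes of the signal, adhesion, channel or matrix lists had a member in a domain of at least 1 kb. Of all members 12.4% had such a domain, and lists of 2, 6, 7 and 2 genes are too short for 0 to stand apart from that share.

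Within 1 kb of the TSS of a protein-coding gene, the highest OLIG2 fold enrichments were 17.7 at Sept9, 16.0 at Bcar3, 15.6 at Dnmt3a, 13.4 at Spcs2 and 12.6 at Tnfrsf9. These distances are to the nearest TSS of any annotated transcript, which can lie inside the gene. Dnmt3a encodes a de novo DNA methyltransferase, and its member lay 331 bp downstream of such a TSS. The domain of this member was 401 bp wide, with an H3K27me3 fold enrichment of 2.65. Of these 5 domains, that of Bcar3, which encodes an adaptor of integrin signalling, met H3K4me3 alone in NSCs and both marks in NFOs, and that of Tnfrsf9 met H3K27me3 alone in NSCs. Tfap2a, Napsa, Tcp11, Car9, Bmx and Zap70 followed with 12.1 to 10.8. Slc43a1, Mgat4e, Eno4 and Calu completed the list with 9.43, 8.08, 7.80 and 7.40. The domain at Eno4, an enolase of sperm, was 1641 bp wide and had an H3K27me3 fold enrichment of 11.0, and H3K27me3 covered 89.2% of it in NSCs and 93.1% in NFOs.

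The promoters of the genes with members carried H3K27me3 more often than those of all OPC OLIG2 genes, which include them, in all 3 cell types. In OPCs this is in part fixed by the rule, because some members lie at the TSS. In NSCs and NFOs it cannot be told apart from the rule where cell types share the mark. Within 2 kb of a TSS, 33.3% (28.0 to 39.0%) of the 297 genes had both marks in NSCs, against 19.1% of the 3615 genes of all OPC OLIG2 peaks, and 5.39% (3.11 to 8.60%) had H3K27me3 alone, against 2.02%. In NFOs both marks were found at 22.2% (17.6 to 27.4%), against 8.66%, and H3K27me3 alone at 17.2% (13.1 to 22.0%), against 4.90%. H3K4me3 alone was found at 49.2% (NSCs), 29.0% (OPCs) and 25.3% (NFOs), against 68.8%, 67.0% and 58.2%. For the 45 genes with a domain of at least 1 kb, both marks were found at 66.7% (51.0 to 80.0%) in OPCs and at 44.4% (29.6 to 60%) in each of the other cell types. In OPCs they were found at 43.8% of the 297 genes and 18.7% of the 3615. The TSSs of Hoxa2, Hoxb1, Hoxb13, Hoxd10 and Lhx5 had H3K27me3 alone in OPCs, and those of Tfap2a, Tead1, Myt1l and Casz1, all transcriptional regulators, had both marks.

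**Figure D5:**
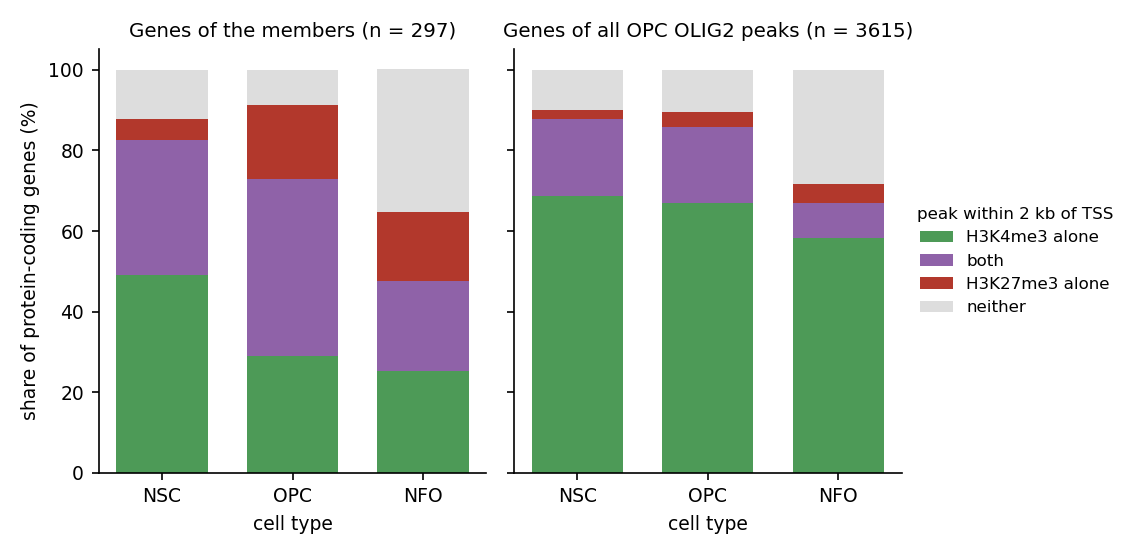
Share of protein-coding genes (vertical axis, %) with H3K4me3 alone, both marks, H3K27me3 alone or neither within 2 kb of any TSS in NSCs, OPCs and NFOs (horizontal axis), for the 297 genes of the members (left) and the 3615 genes of all OPC OLIG2 peaks (right). In NFOs the genes of the members had H3K27me3, alone or with H3K4me3, at 17.2% and 22.2%, against 4.90% and 8.66% of the genes of all peaks.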

How the data were processed

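The lists analysed here came from 8 ChIP-Seq libraries, of OLIG2 (OPCs, NFOs) and of the 2 histone marks in each of the 3 cell types, grouped by their titles. The input and RIP-Seq files were not used. The authors mapped reads to mm10 (GRCm38) with Bowtie2, kept unique reads, used SPP for the OLIG2 peaks and the broad mode of MACS2 for the histone peaks, library by library, and excluded blacklisted regions. OLIG2 libraries were made with the True MicroChIP and DNA SMART ChIP-Seq kits. Versions are not given in the sources used here. The deposited values are the fold enrichment over control (a ratio from the authors' peak caller) and the −log10 of the p-value and of the FDR. All listed peaks were used, including those below the filter of the study, because the members are defined on the lists.

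Overlap was at least 1 bp. Where several H3K27me3 peaks overlapped a member, the widest was its domain. Genes were those of GENCODE M21 and lncRNAs of the NCBI annotation of GRCm38, 21938 protein-coding genes and 20048 lncRNAs. Runs and motifs were counted in the GRCm38.p6 genome, and promoters were the RefSeq table of that build. With 1 library per list no test between cell types was made, and shares carry exact binomial 95% intervals. The classes were tested on simulated peaks. The scripts ran under Python 3.11.15, with SciPy 1.17.1 for intervals, Matplotlib 3.10.9 for figures, and pandas 2.3.3 and NumPy 2.4.6 otherwise.

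The members and the gene lists were chosen with earlier results of these data known. Named are the genes of the 10 members with the highest OLIG2 fold enrichment (1 of them is not reported here), of the 10 widest domains, of at least 3 members, of up to 15 members within 1 kb of a protein-coding TSS and of up to 5 members per family. Grin1, Grik2, Pou2f3, Efna3, Hoxa2, Hoxb1, the lower Foxp1 member, Tead1, Myt1l, Casz1, Nkx2-3, Hs3st4 and Plekha7, the genes at the limits of the rule and those of domains with 2 members were named after their values were seen, as were the printed sequences chosen. Alternatives were other filters, overlaps, widths, gene sets and windows.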

Additional observations from a re-analysis of the deposited data

How the results depend on the processing

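The filter of the study on every list (an FDR below 0.05, a minimum fold enrichment of 5 at OLIG2 peaks and 3.5 at peaks of the marks) left 351 members with a median domain of 247 bp, and 29.9% with NSC H3K27me3 and 7.98% with NFO H3K4me3. Fold enrichments above 10 for OLIG2 and above 5 for OPC H3K27me3 left 64 members with a median of 244 bp, 39.1% with NFO H3K27me3 and 23.4% with NFO H3K4me3. Shares of all OPC H3K27me3 peaks under either filter were not computed. How filtered members compare with the whole list is therefore not known. Domains of at least 1 kb alone left 67 members, of which 62.7% and 70.1% met H3K27me3 in NSCs and NFOs, and 46.3% and 40.3% H3K4me3. Joining peaks across gaps of up to 3 kb gave a median width of 656 bp. With at least 50% of the domain covered, the shares were 33.1% and 15% for H3K27me3 of NSCs and NFOs, and 10.9% and 4.63% for H3K4me3.

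Protein-coding genes alone gave 54.4% of members a gene, and 2 kb upstream in place of 5 kb gave 57.6%. With 1 TSS per gene, 3.52% lay within 1 kb of a TSS. Chosen after seeing the data, domains wider than the OLIG2 peak left 342 members with a median of 656 bp, 49.7% and 28.9% with H3K27me3 and 24.3% and 14.9% with H3K4me3 of NSCs and NFOs. Also chosen after seeing the data, members without a run of 8 A or 8 T numbered 64, with a median of 570 bp, 31.2% with NFO H3K27me3, 9.38% within 1 kb of a TSS and 40.6% with an E-box. The causes of these moves were not tested beyond what each alternative leaves out.

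No paired analysis was possible because each list is 1 library, and for the same reason leaving out a replicate was not an option. The lists give no depth, so the absence of a mark in NSCs or NFOs is an absence from that list of called peaks. Narrow domains decide the median width and most shares over all members.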
